A study of Mus musculus with 18 samples.

Results

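The 88 cytosolic ribosomal protein genes were followed in 3 sorted cell populations of mouse skin, among 13816 genes in the authors' deposited table. They were chosen by name: protein-coding entries whose symbol starts with Rpl or Rps followed by a digit or by the letter a, plus Rplp0, Rplp1 and Rplp2, without the kinases named Rps6k. The rule itself uses no measured value, but it was set with earlier results of these data known. By name, 77 are the usual proteins of the ribosome: 43 of the large subunit, 3 of its stalk and 31 of the small subunit. Another 4 are paralog-like genes (Rpl22l1, Rpl7l1, Rps27l and Rpl36al). The names of 6 mark them as copies or as arising from one (Rpl10-ps3, Rpl9-ps6, Rps18-ps5, Rpl36a-ps1, Rps27rt and Rps23rg1). Of these 6, Rps23rg1 matched Rps23 at only 51.2% of aligned coding bases and is not shown to encode a ribosomal protein. The last of the 88, Rps19bp1, encodes a protein that binds Rps19 and is no part of the ribosome. Fau, whose ribosomal protein is made as a fusion with a ubiquitin-like protein, and Rack1, a scaffold protein on the small subunit, fall outside the rule and are given among the related genes.

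The groups were DPCP EpSCs, DPCP Germ and DPCP Bulge, all from skin at day 2, and Control EpSCs, Control Germ and Control Bulge, all from skin at day 0, with 3 samples in each of the 6 groups. DPCP (diphenylcyclopropenone) is used to set off contact allergy in skin, and the series asks how follicle stem cells behave in skin inflamed by it. The cells came from dorsal skin treated with trypsin and were separated by flow cytometry. The labels give no genotype, strain, age or dose, do not spell out EpSCs, name the cell type as a keratinocyte, and do not tie the samples to animals. P-values may then measure only the spread between samples, which may be technical, and DPCP and day cannot be told apart, since the labels give no control skin at day 2.

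Ribosomes are built from rRNA and a fixed set of proteins, most of them present once per ribosome, and the genes for these proteins are usually expressed together. Their mRNAs are short and abundant, and typically begin with a pyrimidine run, the TOP tract (terminal oligopyrimidine), through which mTORC1 signalling and the protein Larp1 control translation and mRNA stability. In mouse skin, partial loss of some small-subunit proteins, such as Rps19 and Rps20, is known to darken the skin through p53 and Kit ligand made by keratinocytes.

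A pyrimidine run near the annotated start is where a TOP tract would lie, so 30 bases around the longest such run are shown for members that the results turn on: the lowest in EpSCs (Rps24 and Rpl35), a pair of paralogs (Rps27 and Rps27l), a stalk protein (Rplp2), a member with unequal effects between populations (Rpl38), the S6 kinase target Rps6, and the members that stood at the other end of the range (Rps10, Rpl13a, Rpl24 and Rpl7l1). Sequences are from RefSeq on GRCm38.p6, on the gene's own strand, and capitals mark the longest run, within 50 bases of the annotated start, that begins with C and goes on in C or T. For a gene with several annotated starts, the start with the longest run was picked, so the lengths lean towards long runs.
Rps24, chr14:24490709-24490738, plus strand: tgagcggtCCTCTTTTCCTCCTCTCCagct
Rpl35, chr2:39005117-39005146, minus strand: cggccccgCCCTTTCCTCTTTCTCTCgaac
Rps27, chr3:90213629-90213658, minus strand: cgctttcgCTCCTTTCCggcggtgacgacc
Rps27l, chr9:66946056-66946085, plus strand: cgcctccaCTCCTCTCCactcctccccgcc
Rplp2, chr7:141447639-141447668, plus strand: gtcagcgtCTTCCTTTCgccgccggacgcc
Rpl38, chr11:114668572-114668601, plus strand: gcctcgttCTTTCCCCgttctcttcggttc
Rps6, chr4:86857347-86857376, minus strand: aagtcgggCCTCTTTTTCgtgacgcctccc
Rps10, chr17:27635226-27635255, minus strand: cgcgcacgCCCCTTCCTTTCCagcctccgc
Rpl13a, chr7:45128722-45128751, minus strand: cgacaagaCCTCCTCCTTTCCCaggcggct
Rpl24, chr16:55966231-55966260, plus strand: caaacccaCTCCCCgccaatgctgtaggaa
Rpl7l1, chr17:46782667-46782696, minus strand: gaggcgggCCTCTCTaccccgcccggtgag
The run was 18 bases long in both Rps24 and Rpl35, 13 in Rps10 and 14 in Rpl13a, so members at both ends of the range had long runs. It was 6 bases in Rpl24 and 7 in Rpl7l1, under the 8 counted as a tract here. Counted from the annotated start as position 1, the run began at -7 in Rpl35, -4 in Rplp2, -3 in Rps10, -2 in Rps27, -1 in Rps6, 1 in Rpl38 and 3 in Rpl13a. It began at -36 in Rps24 and Rpl24, -32 in Rpl7l1 and -22 in Rps27l, where it lies wholly before the annotated start and is not shown to be part of the mRNA.

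Promoter entries (250 bases before to 50 after the annotated start) were found for 64 of the 88 members, with 75 promoters. A tract, defined as C followed by at least 7 bases that are each C or T on the gene's own strand, lay in the 100 bases around the start in 77.3% of member promoters, against 27.4% of 13430 promoters of the other protein-coding genes in the table and 28.8% of all 32851 promoters in RefSeq's table. The letters CCGGAA, the core that ETS factors bind, or TTCCGG on the other strand, were in 48% of member promoters over the whole window, against 25.6% of the other genes' and 14.9% of all promoters. TTCCGG can overlap the end of a tract, as it does in Rps27. AAGATGGC or its reverse GCCATCTT, the core of the YY1 motif, was in 10.7% of member promoters, 4.0% of the other genes' and 2.75% of all. TATAAA or TTTATA was in 9.33% of member promoters, 7.62% of the other genes' and 13.6% of all. These shares are descriptions, and a match is not a measured binding site.

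Values per library were not used here, because no sample label matches the names of their columns, so levels in single samples, sequencing depth and the overlap of groups are unknown, and the labelled cell types could not be checked against marker levels. Fold changes, p-values and adjusted p-values (limma, Benjamini-Hochberg over 13816 genes) come from the authors' deposited table. They are DPCP over control on the log2 scale, so that a negative value means lower in DPCP. A gene was called at an adjusted p under 0.05, and 95% intervals were rebuilt from the deposited p-values. In bulk samples, fewer cells of a type and less RNA per cell cannot be told apart.

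In EpSCs, ribosomal protein mRNAs fell almost as a block at day 2 of DPCP. Of the 88 genes, 79 were called lower and 0 were called higher by limma, and 82 had an unadjusted p under 0.05, all of them lower. Of all genes, 20% were called lower, 19.9% higher and 39.9% in either direction, and 24.3% were lower at an unadjusted p under 0.05. The sign was negative in 86 members, against 50.1% of all genes. The median log2 fold change of the members was -1.28, a 2.43-fold lower level, with quartiles of -1.69 and -0.99, against a median of -0.0034 over all genes. A fall of at least 1 on the log2 scale was present in 64 members and a fall of at least 2 in 10.

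**Figure D1:**
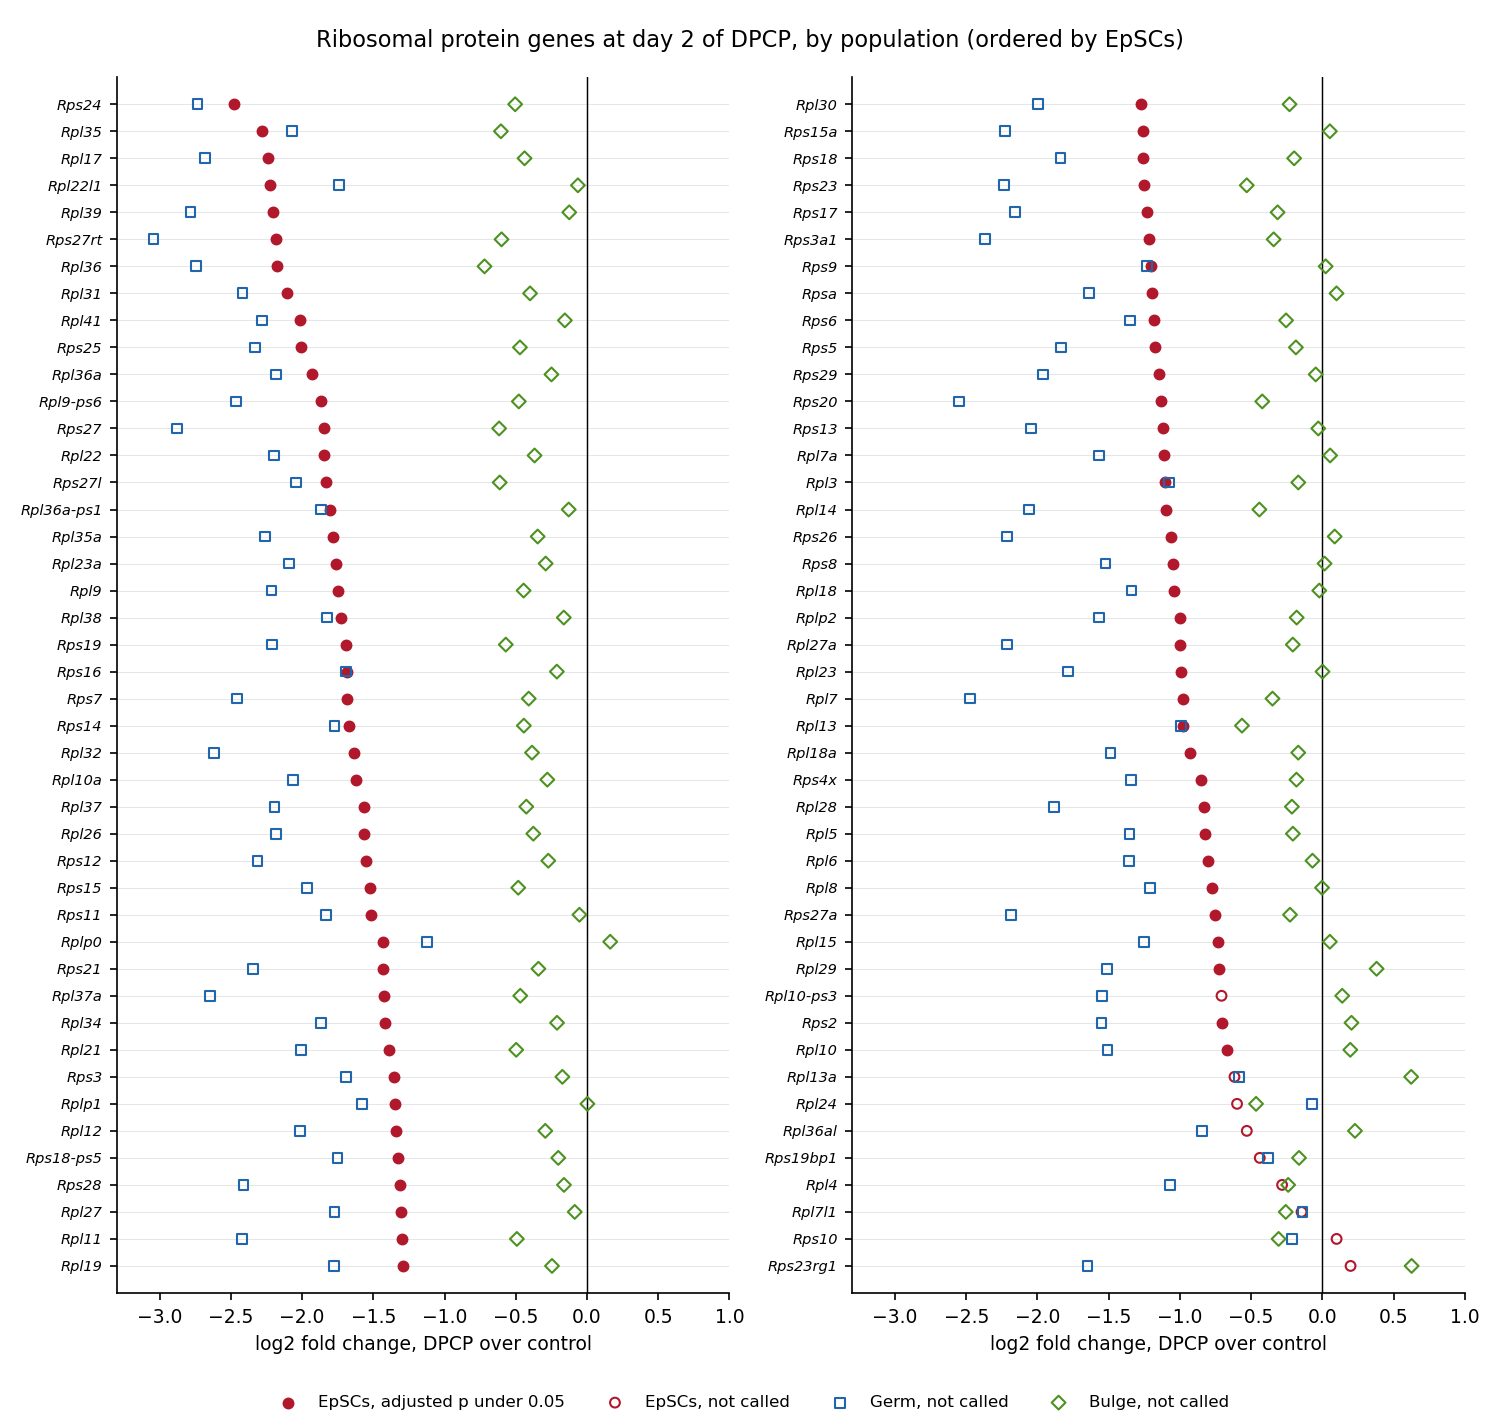
Log2 fold change (DPCP over control, horizontal axis) of each of the 88 ribosomal protein genes in EpSCs (red circles), Germ (blue squares) and Bulge (green diamonds), ordered by EpSCs down the left and then the right panel. Filled symbols have an adjusted p under 0.05: the 79 called in EpSCs are all left of 0, all 88 Germ values are left of 0 without a call, and Bulge values lie between -0.72 and 0.63.

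Members of both subunits fell. Of the 43 large-subunit members outside the stalk, 40 fell, with a median of -1.30, and of the 31 small-subunit members 30 fell, with a median of -1.25. The member with the largest fall, Rps24, a small-subunit protein mutated in some patients with Diamond-Blackfan anemia, fell 5.58-fold (log2 fold change -2.48, limma adjusted p = 5.28e-05, authors' deposited table). Its rebuilt 95% interval ran from -3.47 to -1.49. Rpl35, at the exit of the tunnel through which the new protein leaves, fell 4.85-fold (log2 fold change -2.28, adjusted p = 5.81e-05, the authors' deposited table). Rps25, which viral and cellular internal ribosome entry uses, fell 4.01-fold in the authors' deposited table (adjusted p = 8.02e-05).

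Rpl17, Rpl39 and Rpl36, all large-subunit proteins, were among the members with the largest falls. In the authors' deposited table their EpSCs log2 fold changes were -2.24, -2.21 and -2.18, in that order, with adjusted p-values of 0.000157, 0.000202 and 0.000193. Rpl38, the gene disrupted in the tail-short mouse, fell 3.3-fold (log2 fold change -1.72, adjusted p = 6.63e-05, the authors' deposited table). Rps19, whose partial loss darkens mouse skin, fell by 1.69 on the log2 scale, and Rps20, with the same known phenotype, fell by 1.14 (adjusted p = 0.000342 and 0.0043, the authors' deposited table). Of 14 members known as Diamond-Blackfan anemia genes in humans, 13 fell, with a median of -1.30, close to that of all members.

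All 3 genes of the large-subunit stalk, which recruits elongation factors, fell. Rplp0, its base, had a log2 fold change of -1.43 (adjusted p = 0.00011), Rplp1 of -1.35 (adjusted p = 0.000385) and Rplp2 of -1.0 (adjusted p = 0.00154) in the authors' deposited table. Rpl5 and Rpl11, which bind the small rRNA of the large subunit and can restrain Mdm2 when free, fell by 0.82 and 1.30 (adjusted p = 0.00886 and 0.00201, the authors' deposited table). Rps6, the member that ribosomal S6 kinases phosphorylate, fell 2.27-fold and Rpsa, also known as the laminin receptor, 2.29-fold (adjusted p = 0.00304 and 0.00185, the authors' deposited table). Rpl3, at the peptidyl transferase centre, fell 2.15-fold and Rps4x, the X-linked copy in the small subunit, 1.8-fold (adjusted p = 0.00247 and 0.00612, the authors' deposited table).

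Among the smallest falls that were still called, Rpl10, which helps join the subunits, fell by 0.67 (adjusted p = 0.0233), Rps2, near the mRNA entry, fell by 0.70 (adjusted p = 0.0266), and Rpl29 fell by 0.72 (adjusted p = 0.00903) in the authors' deposited table. Rpl8, at the peptidyl transferase centre, fell by 0.77 (adjusted p = 0.00409) and Rps27a, made as a fusion with ubiquitin, fell by 0.76 (adjusted p = 0.0435, the authors' deposited table).

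Not called in EpSCs were 9 members, of which 4 encode usual ribosomal proteins. In the authors' deposited table, Rps10, a small-subunit protein, had a log2 fold change of 0.10 (adjusted p = 0.896). Rpl24, mutated in the belly spot and tail mouse, had -0.60 (adjusted p = 0.527), and Rpl13a, known for silencing translation under interferon gamma in human cells, had -0.62 (adjusted p = 0.112, the authors' deposited table). Rpl4, which reaches into the exit tunnel and has the longest coding sequence of the members, had -0.28 (adjusted p = 0.272, the authors' deposited table). The other 5 were Rps19bp1 at -0.44 (adjusted p = 0.0588), Rpl7l1 at -0.15, Rpl36al at -0.53, Rpl10-ps3 at -0.71 and Rps23rg1 at 0.20. The rebuilt interval of Rps10 in EpSCs, -0.95 to 1.15, excluded a fall as large as the members' median, while that of Rpl24, -2.05 to 0.85, did not.

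Some markers of cell identity were also called in EpSCs, where 20% of all genes were called lower and 19.9% higher. Of 6 bulge markers 5 were called higher, with a median of 2.30. Of 3 germ markers 2 were called lower and 1 higher, with a median of -0.93. Of 9 keratinocyte markers 6 were called lower and 2 higher, with a median of -0.72. Of 4 suprabasal markers 2 were called lower and 1 higher. Of 11 leukocyte markers 3 were called lower (27.3%, near the share of all genes), with a median of -1.02. Of 4 fibroblast markers 2 were called lower. All 8 melanocyte markers were positive, with a median of 2.22, and 2 were called higher, near the share of all genes. All 7 endothelial markers were positive with 0 calls by limma and 2 at an unadjusted p under 0.05. Of 12 immediate early genes, which dissociation can induce, 11 were called lower, with a median of -1.90. Of 12 mitochondrially encoded genes, 10 were called lower, with a median of -2.55. Summed levels of these lists per group could not be given without library values, and their part in the fall of ribosomal protein mRNAs was not tested.

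In Germ, the same genes had lower values in DPCP than in control for every member (against 45% of all genes), but no member passed the threshold. Of the 88 genes, 0 were called by limma, against 0.21% of all genes called lower, 0.847% called higher and 1.06% in either direction. At an unadjusted p under 0.05, 80 members were lower and 0 were higher, against 12% of all genes lower and 13.6% higher. The median log2 fold change was -1.92, a 3.79-fold lower level, with quartiles of -2.23 and -1.54, against a median of 0.10 over all genes. A value of -2 or less was present in 41 members and of -1 or less in 81.

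The adjusted p-values of the members lay close together in Germ: 33 were under 0.10, against 2.31% of all genes lower at that threshold, and 44 lay between 0.10 and 0.15. The lowest belonged to Rpl37a, a zinc-binding large-subunit protein, with a log2 fold change of -2.65 and an adjusted p of 0.0763 in the authors' deposited table. Next were Rps27 at -2.88 and Rps28 at -2.41, both small-subunit proteins, with an adjusted p of 0.0813 each in the authors' deposited table. Rpl8 had -1.21 (adjusted p = 0.0815) and Rplp1 -1.58 (adjusted p = 0.0832) in the authors' deposited table. Errors were wide: the median half-width of the rebuilt 95% interval was 1.48 for the members in Germ, against 0.674 in EpSCs and 0.917 in Bulge.

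By role, Germ values were as low in the small subunit (median -2.04) as in the large subunit outside the stalk (-2.01), and the stalk genes had a median of -1.57. Rps24 had a Germ log2 fold change of -2.73, Rpl39 of -2.78, Rpl36 of -2.75 and Rpl17 of -2.68 (adjusted p from 0.0927 to 0.101, the authors' deposited table). Rps20 stood at -2.55 and Rps19 at -2.21, with adjusted p-values of 0.0879 and 0.0991 in the authors' deposited table. The values nearest 0 were those of Rpl24 at -0.07, Rpl7l1 at -0.14, Rps10 at -0.21, Rps19bp1 at -0.38 and Rpl13a at -0.59 (adjusted p from 0.291 to 0.943, the authors' deposited table). All 5 were also among the members not called in EpSCs.

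In the Germ comparison, 6 of 8 melanocyte markers were called higher, against 0.847% of all genes. All 8 were positive, and their median was 6.09. Of 7 endothelial markers 2 were called higher and all 7 were positive, with a median of 4.60. The 4 fibroblast markers and 11 leukocyte markers had medians of 3.48 and 1.37 with 0 calls by limma. At an unadjusted p under 0.05, 3 and 0 of them were higher, against 13.6% of all genes. Of 4 suprabasal markers 1 was called lower, against 0.21% of all genes, and all 4 were negative. The germ, bulge, keratinocyte and immediate early lists had 0 calls by limma, with medians of 0.74, 0.53, -0.48 and 0.15. All 3 germ, 5 of 6 bulge and 9 of 12 immediate early genes were positive, and 7 of 9 keratinocyte markers were negative. The 12 mitochondrially encoded genes were all negative, with a median of -2.42 and 0 calls by limma. Of them 7 were lower at an unadjusted p under 0.05, against 12% of all genes. The part of these lists in the Germ values of the ribosomal genes was not tested.

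In Bulge, no change of ribosomal protein mRNAs was detected. Of the 88 genes, 0 were called by limma and 0 had an unadjusted p under 0.05, against 5.16% of all genes called lower, 5.12% called higher, 10.3% called in either direction and 29.2% with an unadjusted p under 0.05. The median log2 fold change was -0.22, with quartiles of -0.41 and -0.06, against -0.02 over all genes. The sign was negative in 71 members, against 51% of all genes, yet the median size of the log2 fold change was 0.243 in members and 0.491 over all genes. The rebuilt interval excluded a fall of 1 for 34 members, and for the others a fall of that size lies within the error.

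The extremes in Bulge were small. Rpl36 had a log2 fold change of -0.72 (adjusted p = 0.38), Rps27 of -0.62 (adjusted p = 0.378), Rps27l of -0.61 (adjusted p = 0.371) and Rpl13, a large-subunit surface protein, of -0.56 (adjusted p = 0.298) in the authors' deposited table. Positive values reached 0.63 for Rps23rg1, 0.62 for Rpl13a and 0.38 for Rpl29, with adjusted p-values of 0.629, 0.453 and 0.561 in the authors' deposited table. Rplp1 stood at 0.00 with a rebuilt interval of -0.62 to 0.62. Some markers were called in Bulge, where 5.16% of all genes were called lower and 5.12% higher. Called lower were 2 of 4 suprabasal, 1 of 6 bulge, 1 of 3 germ and 1 of 8 melanocyte markers. All 8 melanocyte markers were negative, with a median of -1.13. All 12 immediate early genes were positive, with 0 calls by limma and a median of 0.84. The other marker lists had 0 calls. The part of these lists in the Bulge values was not tested.

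**Figure D2:**
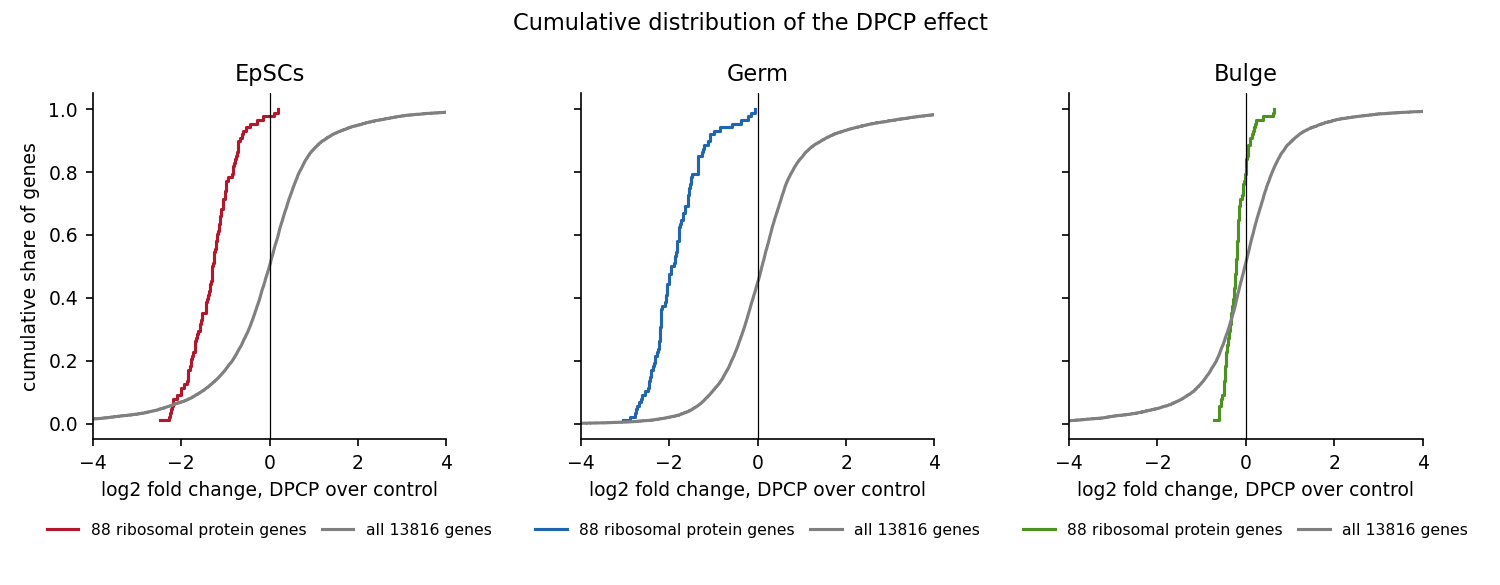
Cumulative share of genes (vertical axis) against log2 fold change (DPCP over control, horizontal axis, shown from -4 to 4) in EpSCs, Germ and Bulge, for the 88 ribosomal protein genes (coloured) and all 13816 genes (grey). The coloured curves lie left of the grey ones in EpSCs (medians -1.28 and -0.0034) and Germ (-1.92 and 0.10), and in Bulge the coloured curve is steep around -0.22.

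Whether the DPCP effect itself differed between populations was tested gene by gene as a difference of log2 fold changes, with standard errors rebuilt from the deposited p-values and Benjamini-Hochberg adjustment over all genes. Between EpSCs and Bulge, 5 of the 88 members were called, a share of 5.68%, which is below the 10.4% of all genes called in either direction and near the 4.91% called lower. All 5 fell more in EpSCs. The difference was -2.16 for Rpl22l1 (adjusted p = 0.0183, rebuilt standard errors), -1.59 for Rplp0 (adjusted p = 0.0254), -1.35 for Rplp1 (adjusted p = 0.0335), -1.56 for Rpl38 (adjusted p = 0.039) and -2.08 for Rpl39 (adjusted p = 0.0413). At an unadjusted p under 0.05, 42 members were lower in EpSCs and 0 higher, against 12.9% of all genes lower. The median difference over the members was -1.10, and it was negative in 86.

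Between Germ and Bulge, 0 members were called, against 5.99% of all genes (2.27% lower), and 44 had an unadjusted p under 0.05, all lower in Germ, against 8.73% of all genes lower. The median difference was -1.71, negative in 85 members, and the smallest adjusted p, 0.105, was that of Rpl29 (rebuilt standard errors). Between EpSCs and Germ, 0 members were called and 0 had an unadjusted p under 0.05, against 12.2% and 25.2% of all genes. The median difference was 0.52, positive in 80 members, with a median half-width of the 95% interval of 1.66. The rebuilt Bulge interval excluded the EpSCs value of 67 members and the Germ value of 82. These counts take the EpSCs and Germ values as free of error, so they are no test of a difference. The tests of a difference called 5 members between EpSCs and Bulge and 0 between Germ and Bulge.

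The order of the members was partly shared between populations. Across the 88 members, which are not independent, Spearman's rho of the log2 fold changes was 0.68 for EpSCs and Germ, 0.51 for EpSCs and Bulge and 0.56 for Germ and Bulge, against 0.24, 0.32 and 0.24 across all genes. The comparisons share no samples, but the labels do not say whether they share animals. Of the 10 lowest members in EpSCs and in Germ, 5 were shared (Rpl17, Rpl36, Rpl39, Rps24 and Rps27rt). Of the 10 highest, 7 were shared (Rpl13a, Rpl24, Rpl36al, Rpl4, Rpl7l1, Rps10 and Rps19bp1).

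**Figure D3:**
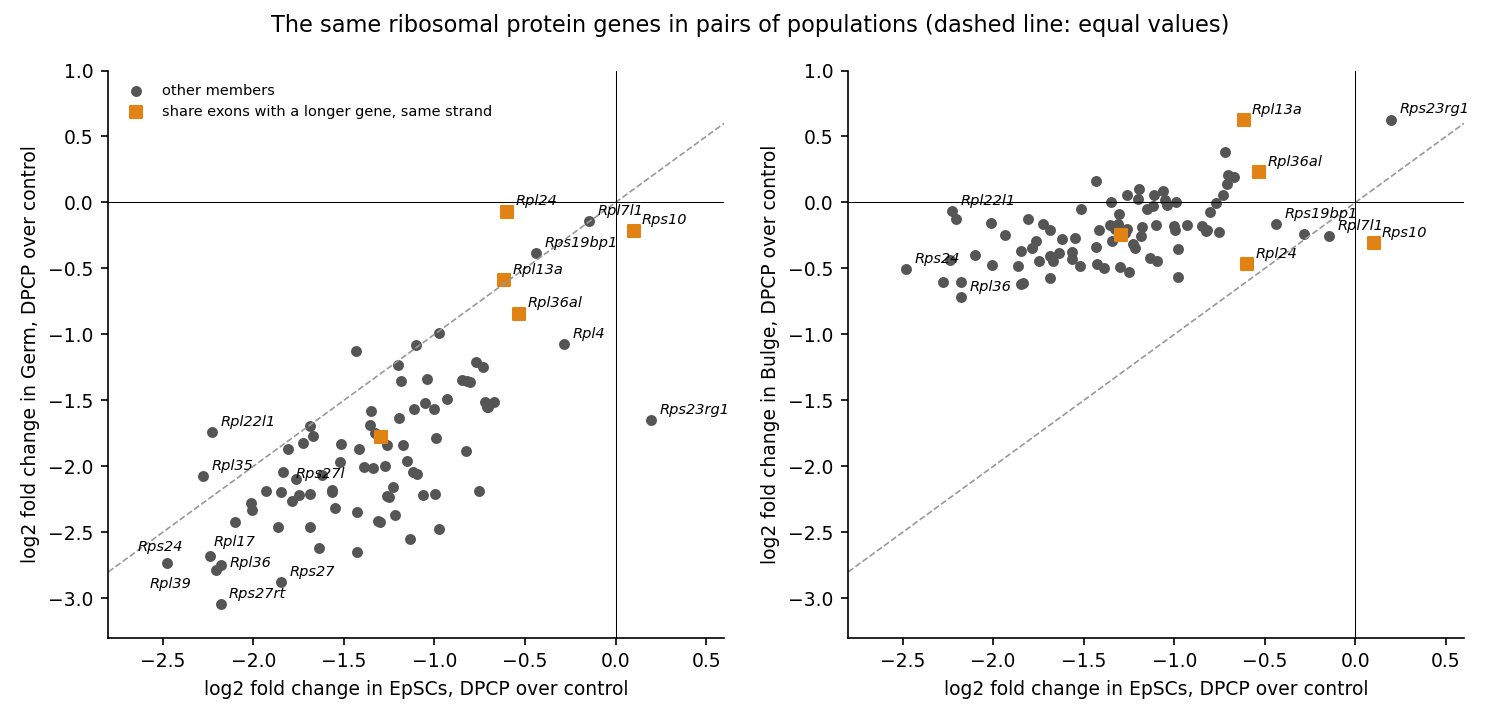
Log2 fold change (DPCP over control) of each ribosomal protein gene in EpSCs (horizontal axis) against Germ (left panel) and Bulge (right panel). The dashed line marks equal values. Orange squares are the 5 members that share exons with a protein-coding gene or processed transcript on the same strand. The legend calls that gene longer, but lengths were not compared. In the left panel 80 of 88 points lie below the line, and in the right panel 86 lie above it.

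Several of the members at the upper end share exon positions with other genes. In GENCODE M21, on the same build, Rpl13a, Rpl19, Rpl24, Rpl36al and Rps10 share exons with a same-strand gene annotated as protein-coding or processed transcript. For Rps10 that gene is a read-through transcript with Nudt3. The lengths of the overlapping genes were not compared. These 5 had a median of -0.60 in EpSCs and -0.59 in Germ, against -1.30 and -2.0 for the other 83. In EpSCs, 1 of the 5 fell (Rpl19, a large-subunit protein), against 78 of the 83. The counting rule is not given in the sources used here, so the values of all 5 are uncertain, and the part of counting in them was not tested. The split was chosen after the values were seen. In all, 28 members share an exon position with another gene on the same strand, mostly small nucleolar RNAs, and 20 with a gene on the other strand.

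Copies with near-identical coding sequences had values close to those of their parents. Rps27rt, a retrocopy of Rps27 with a coding sequence identical over all 252 bases, had log2 fold changes of -2.18 in EpSCs, -3.04 in Germ and -0.60 in Bulge in the authors' deposited table. Rps27 itself had -1.85, -2.88 and -0.62 in the same order, so the copy and the parent differed by at most 0.33. The starts of both genes are shown because they share a run of 38 bases, of which the first 20 are in capitals.
Rps27, chr3:90213628-90213657, minus strand: gctttcgctcCTTTCCGGCGGTGACGACCT
Rps27rt, chr9:114982720-114982749, minus strand: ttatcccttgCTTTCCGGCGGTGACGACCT
Rpl10-ps3 matched Rpl10 at 100% of coding bases, Rpl9-ps6 matched Rpl9 at 99.8%, Rps18-ps5 matched Rps18 at 99.3% and Rpl36a-ps1 matched Rpl36a at 97.8%. None of these pairs differed by more than 0.32 on the log2 scale in any population. Reads of such copies and parents can be exchanged in counting, and GENCODE M21 names 300 such copies of ribosomal protein genes, so the values of both are uncertain. Rps23rg1, a gene that arose in mice from a retrocopy of Rps23, has an exon over an exon of Rps23-ps2 on the other strand. Its coding bases matched those of Rps23 at only 51.2% of aligned positions, so it is not shown to encode a ribosomal protein. It had 0.20 in EpSCs, -1.65 in Germ and 0.63 in Bulge, beside -1.25, -2.23 and -0.53 for Rps23 in the authors' deposited table.

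The 4 paralog-like genes are more divergent, and their values did not all track their partners. Rps27l, a p53 target whose coding bases match Rps27 at 77.6%, fell 3.57-fold in EpSCs (log2 fold change -1.84, adjusted p = 0.000112, the authors' deposited table), beside -1.85 for Rps27. In Germ Rps27l had -2.04, beside -2.88 for Rps27 in the authors' deposited table. Rpl22l1, which can replace Rpl22 in the ribosome and matches it at 70.1%, fell 4.68-fold (log2 fold change -2.23, adjusted p = 0.000211, the authors' deposited table), beside -1.85 for Rpl22. In Germ the order was the other way, with -1.74 for Rpl22l1 beside -2.20 for Rpl22 in the authors' deposited table. Rpl7l1, a relative of Rpl7 at 59.0%, had -0.15 in EpSCs and -0.14 in Germ, beside -0.98 and -2.47 for Rpl7 in the authors' deposited table. Rpl36al, at 87.9% of Rpl36a, had -0.53 in EpSCs and -0.84 in Germ, beside -1.93 and -2.19 for Rpl36a (the authors' deposited table). Differences within these pairs were not tested.

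Members with short coding sequences had the lower values. Across the 88 members, Spearman's rho of the log2 fold change with coding length was 0.51 in EpSCs, 0.52 in Germ and 0.21 in Bulge. Across 12803 other protein-coding genes it was 0.09, 0.24 and 0.21. With transcript length the values were 0.40, 0.31 and 0.18 for members and 0.13, 0.26 and 0.23 for the other genes, in the same order. The 43 members under 450 coding bases had medians of -1.55 in EpSCs and -2.19 in Germ, and the 24 members of 600 bases or more had -0.98 and -1.43. Rpl41, the shortest at 75 coding bases, fell 4.03-fold in EpSCs (log2 fold change -2.01, adjusted p = 0.000568, the authors' deposited table). Rpl4, the longest at 1257, had -0.28.

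Short genes outside the list also had negative medians, nearer to 0 in EpSCs and Germ. The 944 other protein-coding genes under 450 coding bases had medians of -0.31 in EpSCs, -0.55 in Germ and -0.32 in Bulge, and the 11073 of 600 bases or more had 0.05, 0.16 and 0.04. In EpSCs 93.0% of the short members were called lower, against 32.4% of the other short genes. In Bulge the short members, at -0.25, were not below the other short genes. Fragment length and RNA quality were not available, and their part in these values was not tested.

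**Figure D4:**
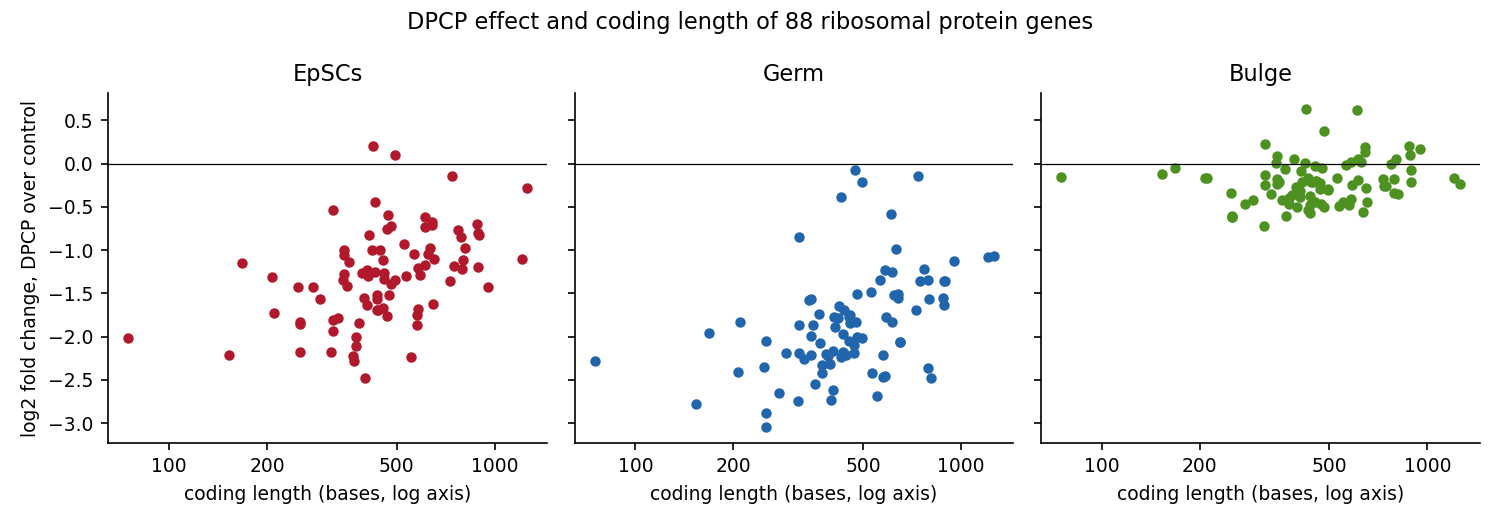
Log2 fold change (DPCP over control, vertical axis) against coding length in bases (horizontal log axis) for the 88 ribosomal protein genes in EpSCs, Germ and Bulge. Values climb with length in EpSCs and Germ (Spearman's rho 0.51 and 0.52 across members) and less so in Bulge (0.21).

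Members were also split by the start tract, with no test. The 52 genes with a tract had medians of -1.32 in EpSCs, -2.03 in Germ and -0.25 in Bulge, and the 12 without had -1.16, -1.66 and -0.17. Rps10 and Rpl13a, with the long runs shown above, were not called, while Rps27rt, without a counted tract, had the lowest value of all members in Germ. Members lie on 20 chromosomes, with 14 on chromosome 7.

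Other mRNAs of the TOP class were also called lower in EpSCs, in a smaller share. Of 22 measured translation genes in that class, 12 fell and 0 rose in EpSCs, against 20% and 19.9% of all genes. Their median there was -0.60. In Germ 0 were called by limma, with a median of -1.06. At an unadjusted p under 0.05, 16 were lower and 1 higher in Germ, against 12% and 13.6% of all genes. In Bulge 2 rose and 0 fell, against 5.12% and 5.16% of all genes, with a median of -0.14. Naca, a chaperone of new proteins at the tunnel exit, fell 2.38-fold in EpSCs (log2 fold change -1.25, adjusted p = 0.00047, the authors' deposited table). Eif3f, an initiation factor subunit, fell by 1.04 (adjusted p = 0.000229) and Fau, the source of the small-subunit protein Rps30, fell by 1.21 (adjusted p = 0.00227, the authors' deposited table). Rack1 fell by 0.61 in EpSCs (adjusted p = 0.0379) and had -0.72 in Germ and 0.51 in Bulge in the authors' deposited table.

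The class was not uniform. Eef1a1, which delivers aminoacyl-tRNA, fell by 0.81 in EpSCs (adjusted p = 0.0151), while Eef2, the translocase, had -0.04 there (adjusted p = 0.866, the authors' deposited table). Pabpc1, the poly(A)-binding protein, and Hnrnpa1, a splicing factor, rose in Bulge by 0.92 and 0.77 (adjusted p = 0.042 and 0.0378, the authors' deposited table).

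Few of the genes that assemble ribosomes were called. Of 32 ribosome biogenesis factors, 4 fell (12.5%) and 1 rose in EpSCs, both below the shares of all genes (20% lower and 19.9% higher), with a median of -0.08, and the median was 0.29 in Germ with 0 calls by limma, with 6 above and 1 below zero at an unadjusted p under 0.05. In Bulge 3 rose and 0 fell, against 5.12% of all genes higher, with a median of 0.50 and 30 positive values. Rrp9, of the box C/D particle that processes rRNA, fell by 0.77 in EpSCs, Nop10, of the box H/ACA particle, by 0.89, and Fbl, the rRNA methylase fibrillarin, by 0.58 (adjusted p = 0.0045, 0.00616 and 0.00519, the authors' deposited table). Nop56, a partner of fibrillarin, had 0.07 in EpSCs and 1.17 in Germ (adjusted p = 0.718 and 0.113, the authors' deposited table). Tsr1, Ddx21 and Heatr1, which act in subunit maturation and rRNA synthesis, rose in Bulge by 1.04, 0.95 and 1.16 (adjusted p = 0.0332, 0.0367 and 0.0378, the authors' deposited table).

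Of 14 RNA polymerase I genes, which transcribe rRNA, 5 fell in EpSCs (35.7%, against 20% of all genes) and 0 rose, with a median of -0.30. In Germ their median was -0.29 with 0 calls by limma. There 2 were lower at an unadjusted p under 0.05, against 12% of all genes. In Bulge 1 rose and 0 fell, against 5.12% of all genes higher and 5.16% lower. Taf1d, of the promoter selectivity complex, fell 3.6-fold in EpSCs (log2 fold change -1.85, adjusted p = 0.000491, the authors' deposited table). Polr1b, the second large subunit of the polymerase, rose by 0.92 in Bulge (adjusted p = 0.0406) and had -0.36 in EpSCs in the authors' deposited table. Of 19 cytosolic aminoacyl-tRNA synthetases, which charge tRNAs, 9 rose and 0 fell in EpSCs, against 19.9% of all genes higher, and 4 rose and 0 fell in Bulge, against 5.12%, with medians of 0.29 and 0.55. In Germ their median was 0.33 with 0 calls by limma. There 6 were higher at an unadjusted p under 0.05, against 13.6% of all genes. Rars rose by 1.40 and Iars by 0.66 in EpSCs (adjusted p = 3.8e-05 and 0.0106, the authors' deposited table).

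Among 20 genes of mTORC1 signalling and TOP control, 5 rose and 1 fell in EpSCs, with a median of 0.01, and the share that rose is near the 19.9% of all genes. In Bulge 1 rose and 0 fell, and in Germ 0 were called by limma, with 3 higher and 1 lower at unadjusted p under 0.05. The 1 called lower in EpSCs was Myc, a driver of ribosome synthesis, at -2.31 (adjusted p = 0.000519), against values of 0.74 in Germ and 0.73 in Bulge in the authors' deposited table. Eif4ebp1, the repressor of cap binding, rose by 0.94 and Ddit4, an inhibitor of mTORC1, rose by 1.23 in EpSCs (adjusted p = 0.000919 and 0.00243, the authors' deposited table). Eif4g1, the initiation scaffold, rose by 0.69 in EpSCs and by 1.54 in Bulge (adjusted p = 0.00893 and 0.0191, the authors' deposited table).

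Fewer mitochondrial ribosomal proteins were called than cytosolic ones. Of 77 measured, 28 fell (36.4%, against 20% of all genes) and 4 rose in EpSCs, with a median of -0.35. In Germ the median was -0.53 with 0 calls by limma. There 22 were lower at an unadjusted p under 0.05, against 12% of all genes. In Bulge the median was -0.11 with 0 calls and 3 at an unadjusted p under 0.05, against 29.2% of all genes. Mrps16 fell 2.27-fold and Mrpl23 2.21-fold in EpSCs (adjusted p = 0.000508 and 0.000648, the authors' deposited table). Of 77 nuclear subunits of oxidative phosphorylation, 36 fell (46.8%) and 4 rose in EpSCs, with a median of -0.44. In Germ their median was -1.03, with 0 calls by limma. There 51 were lower and 0 higher at an unadjusted p under 0.05, against 12% and 13.6% of all genes. In Bulge 3 fell (3.9%, against 5.16% of all genes) and 0 rose. Genes with proteasome subunit symbols had medians of 0.08 in EpSCs and -0.50 in Germ. In EpSCs 4 of 38 were called lower (10.5%) and 5 higher, both below the shares of all genes. They were taken by symbol and include Psmb8, Psmb9 and Psmc3ip, so the list is not limited to constitutive subunits. In Germ 0 of them were called by limma and 11 were lower at an unadjusted p under 0.05, against 12% of all genes. The mitochondrially encoded mt-Nd2 fell 13.7-fold in EpSCs (log2 fold change -3.78, adjusted p = 1.3e-05, the authors' deposited table).

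**Figure D5:**
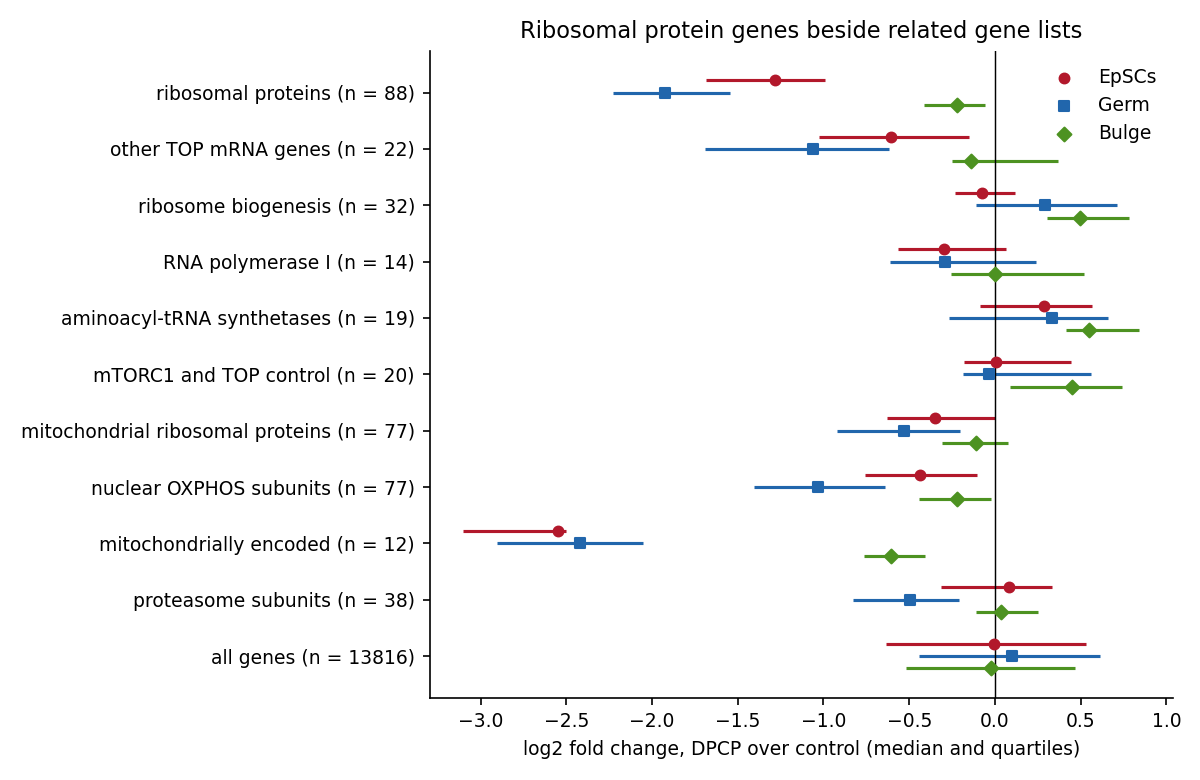
Median (symbol) and quartiles (line) of the log2 fold change (DPCP over control, horizontal axis) of the ribosomal protein genes, related gene lists and all genes, in EpSCs (red circles), Germ (blue squares) and Bulge (green diamonds). Ribosomal protein genes have medians of -1.28, -1.92 and -0.22 in that order, and ribosome biogenesis factors -0.08, 0.29 and 0.50.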

How the data were processed

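RNA of sorted cells was sequenced from stranded poly(A) libraries, per the labels' protocols. Per the submitters' processing notes, the tools named are STAR 2.7.6a, FastQC 0.11.9, limma 3.60.6 and cutadapt 3.5, with the builds GRCm38 and mm10. Which counter, annotation, filter, normalization and design were used is not given in the sources used here. Of 48 columns in the table, 36 held values per library under names that matched no sample label and were not used, so the depth is unknown. The 9 columns used hold the authors' log2 fold change, p-value and adjusted p-value for DPCP against control in each population, per the file headers. The deposited adjusted p-value equals a Benjamini-Hochberg adjustment over all 13816 genes.

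From these, counts, medians and quartiles were computed in Python 3.11.15 (pandas 2.3.3, scipy 1.17.1). A standard error was rebuilt as the log2 fold change over the normal score of its p-value. Differences of effects were divided by the combined standard error, taking libraries as independent, and adjusted over all genes. It is an approximation that ignores how limma pools the spread. Tests planned on library values, and comparisons between populations in control skin, were not run. Coding lengths and overlaps came from GENCODE M21, which matched 97.0% of gene IDs and all 88 members by ID and version. Sequences came from RefSeq.

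Genes were named by rule: in each population the 5 members with the smallest adjusted p and the 5 at each end of the log2 fold change, paralog pairs, fixed members by role, called differences, and up to 4 members of each related list by adjusted p. Rps19, Rps20, Rps23, Rps27a, Rpl41 and Rpl19 and some genes of the related lists were named after their values were seen. Members and lists were chosen with earlier results of these data known.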

Additional observations from a re-analysis of the deposited data

Results flagged for a closer look

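The tests of a difference of DPCP effects between populations, with rebuilt standard errors and Benjamini-Hochberg adjustment, called these genes among those named. The EpSCs minus Bulge difference on the log2 scale was -2.16 for Rpl22l1, -2.08 for Rpl39, -1.59 for Rplp0, -1.56 for Rpl38 and -1.35 for Rplp1 among the ribosomal protein genes. Among related genes it was -3.04 for Myc, -2.95 for mt-Nd2, -1.28 for Polr1b, -1.23 for Pabpc1, -1.0 for Eif3f and -0.99 for Fbl. The Germ minus Bulge difference was -1.25 for Eef2. The EpSCs minus Germ difference was 1.0 for Eif4ebp1 and -3.05 for Myc.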

How the results depend on the processing

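Alternatives were an adjusted p under 0.10 or 0.01, Benjamini-Yekutieli adjustment and a minimum fold of 1.5. Under these, 67 to 82 of the 88 members were called lower in EpSCs. Subtracting the median of all genes kept the deposited adjusted p-values, so within a population it could not move a gene across the threshold. That median was -0.0034 in EpSCs, so subtracting it could hardly move the members' median of -1.28. In Germ, 33 members were called at an adjusted p under 0.10, against 0 at 0.05 by limma and 80 at an unadjusted p under 0.05. Subtracting the median of all genes gave -2.02 in Germ and -0.20 in Bulge. In Bulge 0 members were called by limma under these alternatives, and 0 had an unadjusted p under 0.05. For EpSCs minus Bulge, 14 members were called at an adjusted p under 0.10 and 0 under Benjamini-Yekutieli adjustment (42 at an unadjusted p under 0.05), against 5. Leaving out members that share exons with a protein-coding gene or processed transcript on the same strand left 78 of 83 calls in EpSCs. Leaving out the members named as copies or as arising from one, Rps23rg1 among them, left 75. Both choices were made after seeing the data. Over named genes and differences, 1484 comparisons with an alternative kept direction and side of the threshold, 48 lost it, 28 gained it and 0 reversed. The 1484 include 390 subtractions of the median, which within a population could not move a gene across the threshold.

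No paired analysis was possible because the library columns carry no sample label or replicate number. For the same reason, fits to TPM with other pseudocounts, filters or quantile normalization, leaving out each replicate, the limma interaction and the comparisons in control skin were not run.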
